A study of Mus musculus with 13 samples.

Results

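Keratins are the intermediate filament proteins of epithelial cells, and each filament is built from pairs of a type I (acidic) and a type II (basic) keratin. Simple epithelia, such as the luminal layer of the mammary gland, are known for the pair of KRT8 (type II) and KRT18 (type I), with KRT19 (type I) and KRT7 (type II) as further luminal keratins, whereas the basal layer and stratified epithelia use KRT5 with KRT14 and, in squamous tissue, KRT6, KRT16, KRT1 and KRT10. KRT23 is a less studied type I keratin, and KRT80 is a type II keratin described in several epithelia at cell junctions. These 6 genes, Krt7, Krt8, Krt18, Krt19, Krt23 and Krt80, were chosen by name as keratins of simple and luminal epithelium, and all 6 were found among the 15213 genes listed, which include 42 keratin genes.

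The tumors came from MMTV-tTA TetO-Tsg101 females, in which a mammary tumor virus promoter drives the tetracycline-controlled transactivator and this transactivator switches on a Tsg101-luciferase transgene. Per the study's methods, the transgenes were kept on the FVB/N background, and the molecular work used a single founder line. The paper reports that palpable tumors formed mainly in parous females. Without the Tsg101 transgene, a fluorescent reporter showed MMTV-tTA active in a subset of luminal cells. In mice that also carried the Tsg101 transgene, the reporter marked most KRT14-positive cells of hyperplastic ducts. It was also present in basal cells of large carcinomas. RNA was sequenced from 10 mammary tumors of 6 mice with both the tTA and the Tsg101 transgene. Of these, 3 mice gave 1 tumor, 2 mice gave 2 tumors and 1 mouse gave 3 tumors. The mammary glands of 3 wild-type FVB females were sequenced as controls. The controls carried neither transgene, and age, parity and stage of the gland are not given in the labels for any sequenced animal.

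Depth on the listed genes was between 6176269 and 16835397 reads for tumors and, for glands, between 11672487 and 23889042. Levels are given as normalized cpm, which are reads divided by the effective size of each library as the authors set it. Tsg101 itself, counted over the endogenous gene and any transgene reads together, did not pass the test (log2 fold change 0.30, adjusted p = 0.296, limma). The glands also differed from the tumors in milk protein genes and adipocyte markers. The summed level of 8 milk protein genes was between 165045 and 305302 in the glands against 1385 to 76630 normalized cpm in the tumors. That of 10 adipocyte markers was between 3714 and 11237 against 42.3 to 441. Since whole tissue was sequenced, fewer cells of a type and less RNA per cell cannot be told apart. The 16 epithelial genes other than keratins summed to 2523 to 3285 normalized cpm in tumors and to 2170, 3054 and 1601 in glands 1, 2 and 3. Gland 3 thus had the lowest epithelial sum as well as the highest milk and adipocyte sums.

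In the tumors, 3 of the 6 simple keratin genes were significantly higher than in the glands (Krt7, Krt23 and Krt80), none was significantly lower, and Krt8, Krt18 and Krt19 did not pass the test. A gene was called when its adjusted p was below 0.05 and its change exceeded 2-fold in a limma fit over all 11795 genes tested. In that fit 10.2% of the genes were higher in the tumors and 6.99% lower. A filter on low values had left out genes at 5 normalized cpm or less in most libraries. A gene could pass it through the 10 tumors alone but not through the 3 glands alone. Genes high only in the glands were thus not tested. Without the filter, 1603 genes were higher and 1538 lower. Over the 6 simple keratins the median log2 change was 1.77, beside 0.01 for all genes tested. All 6 passed the filter, but Krt80, at or under 5 normalized cpm in every gland, did so through the tumors alone. For this gene a difference was built into passing, and the median includes it. Of the other 5 genes, the middle value is that of Krt18, at 0.22.

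Krt7 and Krt80 are neighbors on mouse chromosome 15, 42.2 kb apart, and Krt8 and Krt18 lie 23.9 kb from each other at the far end of the same keratin cluster. Krt18 is the type I gene placed among type II genes. Krt23 and Krt19 belong to the type I cluster on chromosome 11 and are separated by 647.7 kb. The stretch around the transcription start is given for the 4 genes whose RefSeq promoter sequence was at hand (GRCm38.p6), 120 bases before the start and the first 10 bases from it, since Krt7 and Krt23 rose in the tumors while the pair of Krt8 and Krt18 did not. Each is read 5′ to 3′ on the strand of its gene, and capitals mark matches, on either strand, to TATAAA, the TATA box, and to GGGCGG, the GC box bound by SP1, and to CACCTG, an E-box variant. The AP-1 motif was searched as TGANTCA.
Krt7, chr15:101412283-101412412, plus strand: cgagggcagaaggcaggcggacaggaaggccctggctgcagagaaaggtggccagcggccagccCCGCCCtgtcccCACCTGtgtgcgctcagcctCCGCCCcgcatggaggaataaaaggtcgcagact
Krt23, chr11:99493111-99493240, minus strand: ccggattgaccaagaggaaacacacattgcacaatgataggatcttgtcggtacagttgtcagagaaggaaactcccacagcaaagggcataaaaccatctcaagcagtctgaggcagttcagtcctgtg
Krt8, chr15:102004333-102004462, minus strand: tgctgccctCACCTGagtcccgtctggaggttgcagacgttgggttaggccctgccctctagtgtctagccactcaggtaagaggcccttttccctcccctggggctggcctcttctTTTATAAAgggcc
Krt18, chr15:102028096-102028225, plus strand: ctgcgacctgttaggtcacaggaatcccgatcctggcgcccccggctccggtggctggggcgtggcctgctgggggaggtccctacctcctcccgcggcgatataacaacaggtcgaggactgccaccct

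Within the full window searched, from 250 bases before to 50 bases after the start, GGGCGG occurred 4 times in Krt7 and in none of the other 3 genes, and was present in 35.9% of the 27025 mouse promoters of the same length. CACCTG was present in all 4 genes and in 20% of promoters. TATAAA was found in Krt8 alone, where matches on both strands, which share bases, overlapped the annotated start, and in 14.2% of promoters, and the AP-1 motif in none of the 4 and in 7.9%. The G and C content of the window was 66.3% in Krt7, 61.3% in Krt18, 58.0% in Krt8 and 53.0% in Krt23, beside a median of 52.7% over all promoters. These are matches of letters and do not show that a factor was bound.

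Krt8 (Entrez 16691; chromosome 15, 101996711 to 102004342), the type II partner of the luminal pair, was at 183, 285, 288, 286, 196, 446, 221, 289, 147 and 299 normalized cpm in tumors 1 to 10, and at 274, 415 and 119 in glands 1 to 3. The tumors overlapped with the glands, and only tumor 6 lay above all glands. The means were 264 ± 83.7 (SD, n = 10) and 269 ± 148 (SD, n = 3), and the log2 change was 0.08 (standard error 0.35, 95% interval -0.66 to 0.82, adjusted p = 0.888, limma).

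Krt18 (Entrez 16668; chromosome 15, 102028216 to 102032026), the type I partner, was at 245, 296, 278, 271, 273, 382, 189, 323, 264 and 320 normalized cpm in tumors 1 to 10, and at 219, 399 and 158 in glands 1 to 3. Every tumor lay inside the range of the glands. The means were 284 ± 51.6 (SD, n = 10) and 259 ± 125 (SD, n = 3), and the log2 change was 0.22 (standard error 0.25, 95% interval -0.31 to 0.75, adjusted p = 0.556, limma).

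Krt19 (Entrez 16669; chromosome 11, 100140810 to 100145926), a luminal type I keratin that lacks the tail domain of other keratins, was at 215, 318, 309, 304, 315, 408, 204, 291, 142 and 315 normalized cpm in tumors 1 to 10. Glands 1 to 3 were at 436, 562 and 224, so that 3 tumors lay below all glands and none above. The means were 282 ± 75 (SD, n = 10) and 407 ± 171 (SD, n = 3), and the log2 change was -0.48 (standard error 0.31, 95% interval -1.14 to 0.18, adjusted p = 0.274, limma).

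Among the glands, Krt8, Krt18 and Krt19 were lowest in gland 3, the library with the lowest sum of epithelial genes. Among the tumors, Krt8 and Krt19 were lowest in tumor 9, in which 27.4% of reads fell on the ribosomal RNA gene Rn45s. Without tumor 9, the log2 fold change of Krt19 was -0.38 (adjusted p = 0.326, limma). The part of epithelial content in these levels was not tested, but ratios and a second scaling bear on it. With the libraries rescaled to the 16 epithelial genes, which shifted the median of all genes tested by -0.33 on the log2 scale, the log2 fold changes were -0.27 for Krt8 (adjusted p = 0.424), -0.13 for Krt18 (adjusted p = 0.676) and -0.84 for Krt19 (adjusted p = 0.0128, limma). The sign of Krt8 and of Krt18 therefore turned with the scaling, and Krt19, although past the limit on p, remained within 2-fold. Under that scaling 798 genes were called higher and 1596 lower, against 1204 and 825 before it. Without gland 3, the log2 fold changes were -0.42 for Krt8, -0.08 for Krt18 and -0.86 for Krt19 (adjusted p = 0.047, limma). Without gland 2, that of Krt19 was -0.20 (adjusted p = 0.774, limma).

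Krt7 (Entrez 110310; chromosome 15, 101412403 to 101427806), a type II keratin of ducts and glands, was at 277, 185, 576, 280, 201, 184, 226, 136, 135 and 104 normalized cpm in tumors 1 to 10, and at 20.9, 23.1 and 15.7 in glands 1 to 3. All tumors lay above all glands, and tumor 3 stood above the others. The means of 230 ± 135 (SD, n = 10) and 19.9 ± 3.8 (SD, n = 3) were 11.6-fold apart, and the log2 change was 3.32 (standard error 0.38, adjusted p = 1.76e-05, limma).

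Krt23 (Entrez 94179; chromosome 11, 99477973 to 99493120) was at 125, 58.6, 152, 48.4, 80.9, 34.3, 128, 47.1, 91.5 and 64.5 normalized cpm in tumors 1 to 10, and at 4.75, 9.76 and 5.85 in glands 1 to 3. Again the groups did not overlap, and tumor 6, which had the highest Krt8, Krt18 and Krt19 of the tumors, had the lowest Krt23. The means of 83.0 ± 40.0 (SD, n = 10) and 6.79 ± 2.63 (SD, n = 3) were 12.2-fold apart, and the log2 change was 3.33 (standard error 0.40, adjusted p = 2.35e-05, limma).

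Krt80 (Entrez 74127; chromosome 15, 101348315 to 101370162) was at 13, 25.2, 88.5, 20.7, 25.4, 15.2, 124, 9.41, 22.1 and 16.2 normalized cpm in tumors 1 to 10, with tumors 3 and 7 far above the rest. Glands 1 to 3 were at 0.557, 0.310 and 0.244 normalized cpm, which corresponds to 13, 6 and 2 reads. The means of 36 ± 38.4 (SD, n = 10) and 0.370 ± 0.165 (SD, n = 3) were 97.2-fold apart, whereas limma's log2 change of 4.27 (standard error 0.61, adjusted p = 0.000107, limma) was taken after adding 1 to each value and understates the change of a gene this low in the glands. DESeq2 on the recovered reads, without that addition, gave 6.57 on the log2 scale. The coefficient of variation over the tumors was 107% for Krt80, against 31.7% for Krt8.

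**Figure D1:**
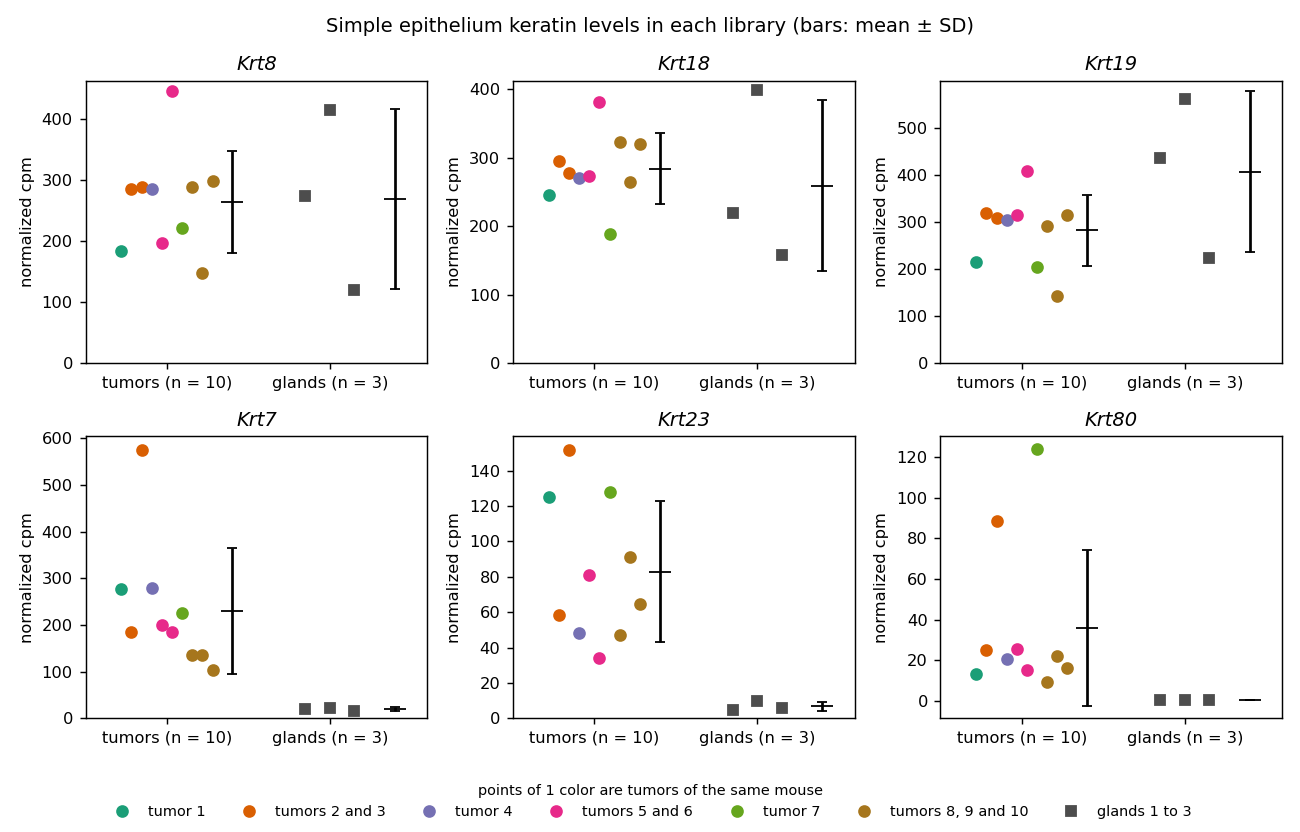
Level of each simple keratin gene in normalized cpm (y axis, linear and separate for each gene) in 10 tumors and 3 glands. Circles of the same color are tumors of the same mouse, squares are glands, and bars show mean ± SD. Krt8, Krt18 and Krt19 overlap between the groups, and all tumors lie above all glands for Krt7, Krt23 and Krt80.

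The rise of Krt7, Krt23 and Krt80 was kept in every other setting tried, among them a mean per mouse, other scalings and each library left out, with log2 fold changes between 2.97 and 3.91 for Krt7, between 2.79 and 3.80 for Krt23 and between 2.54 and 6.57 for Krt80. Tumors of the same mouse were not closer for every gene. Tumors 2 and 3 of the same mouse were at 185 and 576 normalized cpm for Krt7 and at 25.2 and 88.5 for Krt80. For Krt8, the median log2 difference was 0.98 over 5 pairs of tumors from the same mouse and 0.55 over 40 pairs from different mice, and for Krt7 it was 0.38 and 0.67.

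Levels were then compared in pairs of genes within a library. This removes the scaling of the library as far as the levels are well above the 1 added to each. Only Krt8 with Krt18 joins a type II with a type I keratin. The other pairs join keratins of the same type, or a keratin with Epcam. For 10 pairs of genes, the log2 ratio was tested over the libraries by exact permutation (two-sided, Benjamini-Hochberg over the 10 pairs). The smallest possible p is 0.0035, and tumors of the same mouse are treated as separate. With a mean per mouse, the pairs past the threshold stayed so. Their adjusted p was then 0.02, or 0.034 for Krt18 to Krt14 (exact permutation). The log2 ratio of Krt8 to Krt18 was -0.15 ± 0.34 in the 10 tumors (SD) and -0.01 ± 0.37 in the 3 glands, a difference of -0.14 that did not pass the test (exact permutation, adjusted p = 0.55). In single libraries the ratio ran from -0.84 to 0.22 in the tumors and from -0.41 to 0.32 in the glands, so that 7 of 10 tumors lay within the range of the glands. Krt7 is a type II keratin like Krt8. Its log2 ratio to Krt8 was -0.30 ± 0.81 in the tumors and -3.53 ± 0.64 in the glands, and the groups did not overlap (difference 3.24, exact permutation, adjusted p = 0.007).

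Among the type I genes, the log2 ratio of Krt19 to Krt18 was -0.04 ± 0.32 in the tumors, between -0.88 and 0.20, and 0.99, 0.50 and 0.50 in glands 1 to 3. All 10 tumors lay below all glands, with a difference of -0.70 (exact permutation, adjusted p = 0.007). Without gland 1, the difference was -0.54 (exact permutation, adjusted p = 0.087). The log2 ratio of Krt23 to Krt18 was -1.89 ± 0.92 in the tumors and -5.0 ± 0.40 in the glands, and that of Krt80 to Krt8 was -3.27 ± 1.28 and -7.46 ± 0.86 (differences 3.11 and 4.19, exact permutation, adjusted p = 0.007 for each). Krt80 was under 1 normalized cpm in the glands, and its difference was 4.82 with 0.5 added in place of 1 and 2.46 with 5.

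Against the basal keratins, the luminal pair was lower in the tumors. The log2 ratio of Krt8 to Krt5 was -0.97 ± 0.65 in the tumors and 1.77 ± 0.05 in the glands (SD) (difference -2.73, exact permutation, adjusted p = 0.007). That of Krt18 to Krt14 was -0.75 ± 0.96 and 0.77 ± 0.32 (difference -1.51, exact permutation, adjusted p = 0.045), with tumors 3 and 7 lowest at -1.83 and -2.84. This second difference was not past the threshold when any 1 of the glands, or tumor 1, 4 or 5, was left out, with adjusted p between 0.052 and 0.087 in those settings (exact permutation).

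Epcam encodes an adhesion molecule of epithelial cells and served as an epithelial reference. It was itself 0.65 higher in the tumors on the log2 scale, within 2-fold (adjusted p = 0.0227, limma). This was more than the median of 0.20 over the 16 epithelial genes other than keratins, and it lowers the ratios of keratins to Epcam. The log2 ratio of Krt19 to Epcam was -1.34 ± 0.58 in the tumors and -0.21 ± 0.48 in the glands (SD) (difference -1.13, exact permutation, adjusted p = 0.017), and was not past the threshold without gland 1 (-0.94) or gland 2 (-1.05; exact permutation, adjusted p = 0.087 for each). The differences for Krt8 to Epcam (-0.57, adjusted p = 0.22) and Krt18 to Epcam (-0.43, adjusted p = 0.16) did not pass the exact permutation test.

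**Figure D2:**
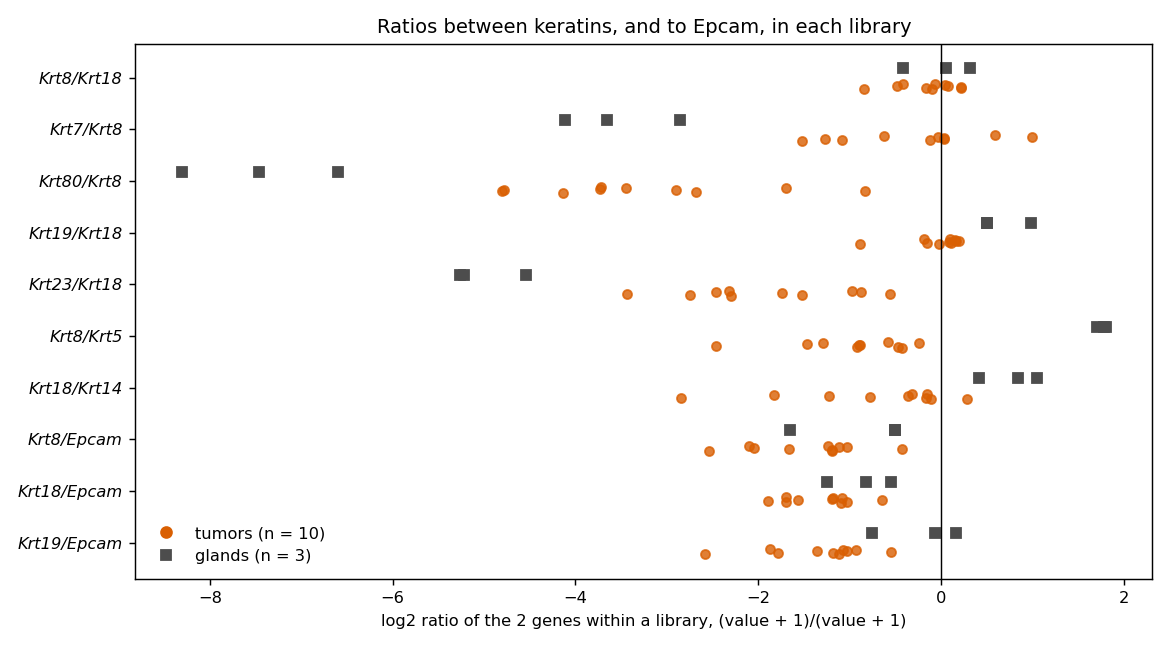
Log2 ratio of both genes of a pair within a library (x axis, after adding 1 to each level) for 10 pairs, with tumors as circles and glands as squares. The tumors and glands do not overlap for Krt7/Krt8, Krt80/Krt8, Krt19/Krt18, Krt23/Krt18, Krt8/Krt5 and Krt18/Krt14, and they overlap for Krt8/Krt18.

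Per kilobase of mRNA, with lengths of the GENCODE transcript paired with the RefSeq mRNA, the order of the mean levels in the glands was Krt19 (258 normalized cpm per kb), Krt18 (180), Krt8 (138), Krt7 (4.86), Krt23 (4.34) and Krt80 (0.121). Krt19 was above Krt18 and Krt18 above Krt8 in each of the 3 glands, whereas Krt7 was above Krt23 in 2 of 3. In the tumors the order of the means was Krt18 (198), Krt19 (179), Krt8 (135), Krt7 (56.3), Krt23 (53.0) and Krt80 (11.7). Krt18 was above Krt19 in 7 of 10 tumors and Krt7 above Krt23 in 5 of 10, so that these neighbors in the order did not differ throughout. The length of Krt7 used here (4094 bases) includes a long untranslated part, and a shorter transcript would raise its value. On the same scale, the basal keratins Krt5 and Krt14 were at 255 and 327 in the tumors and at 36.2 and 85.0 in the glands.

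The simple keratins made up the bulk of keratin signal in the glands and the smaller part in the tumors. Of the summed normalized cpm of all 42 keratin genes, the 6 genes took between 72.9% and 80.6% in the glands and between 9.0% and 38.6% in the tumors (median 29.8%). The sum of the 6 genes ran from 523 to 1410 normalized cpm in the glands and from 802 to 1693 in the tumors, and these ranges overlap. The sum of all keratins was between 718 and 1776 normalized cpm in the glands and between 2743 and 12129 in the tumors. Tumor 7 had the highest keratin sum and the lowest share of simple keratins, and divided by mRNA length the shares were between 75% and 82.4% in the glands and between 8.7% and 38.6% in the tumors. Krt7 alone went from between 1.30% and 2.19% of the keratin signal in the glands to between 1.86% and 10.1% in the tumors, which overlap, and Krt19 from between 31.2% and 36.8% to between 1.68% and 9.53%, which do not.

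**Figure D3:**
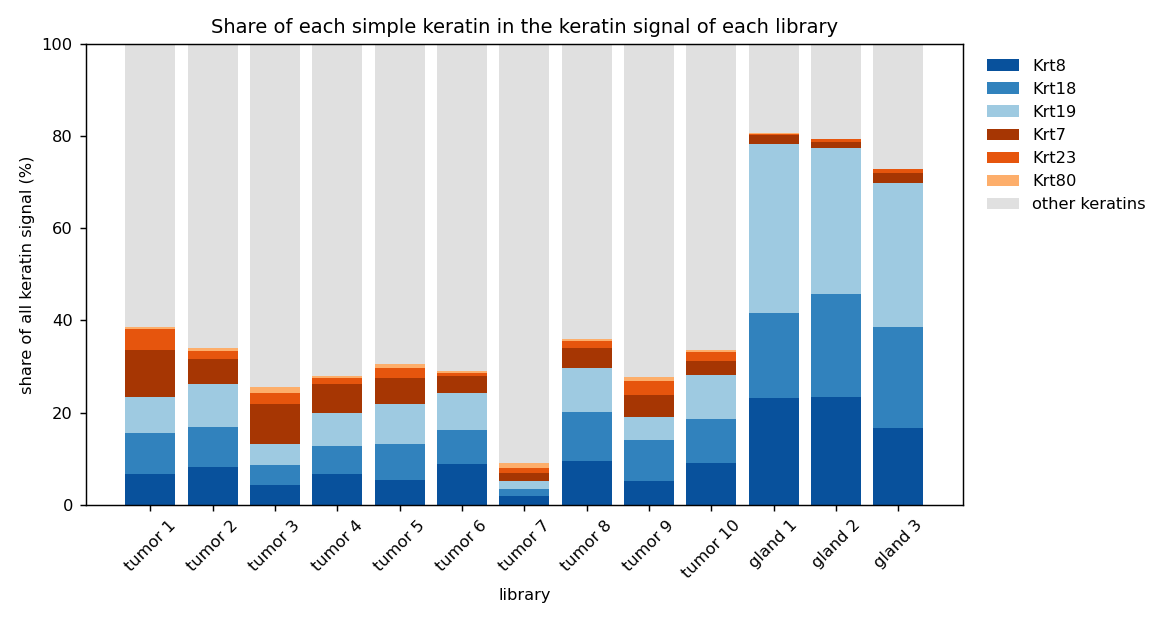
Share of each simple keratin gene in the summed normalized cpm of all 42 keratin genes (y axis, in %), with a stacked bar for each tumor and gland. The 6 genes take between 9.0% (tumor 7) and 38.6% (tumor 1) in the tumors and between 72.9% and 80.6% in the glands.

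All 11 basal and stratified keratins that were tested were significantly higher in the tumors, with a median log2 fold change of 5.21. Of these, 6 were at or under 5 normalized cpm in every gland and passed the filter through the tumors alone, so that the count and the median are in part fixed by the filter. Without it, all 13 listed genes were higher and the median was 4.03. The largest rises were those of Krt79 (7.73), Krt6a (7.72) and Krt16 (6.84), keratins of hair follicle, sebaceous or activated squamous epithelium. All 3 were at 1.03 normalized cpm or less in the glands, so that these values depend on the 1 added to each level. The basal pair rose less, with a log2 fold change of 2.82 for Krt5 (adjusted p = 0.000422) and 1.73 for Krt14 (adjusted p = 0.0117, limma), which was not past the threshold without gland 1 (1.63). The summed level of the 13 listed basal and stratified keratins ran from 1649 to 8448 normalized cpm in tumors against 189 to 363 in glands. Of all 25 keratin genes tested, 15 had likewise passed through the tumors alone. Among the other 10, which exceeded 5 normalized cpm in a gland, Krt8, Krt18 and Krt19 were the 3 that were not called, and the rest were higher. Without the filter, 27 of the 42 were higher and 1, Krt222 (log2 fold change -1.75), was lower.

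**Figure D4:**
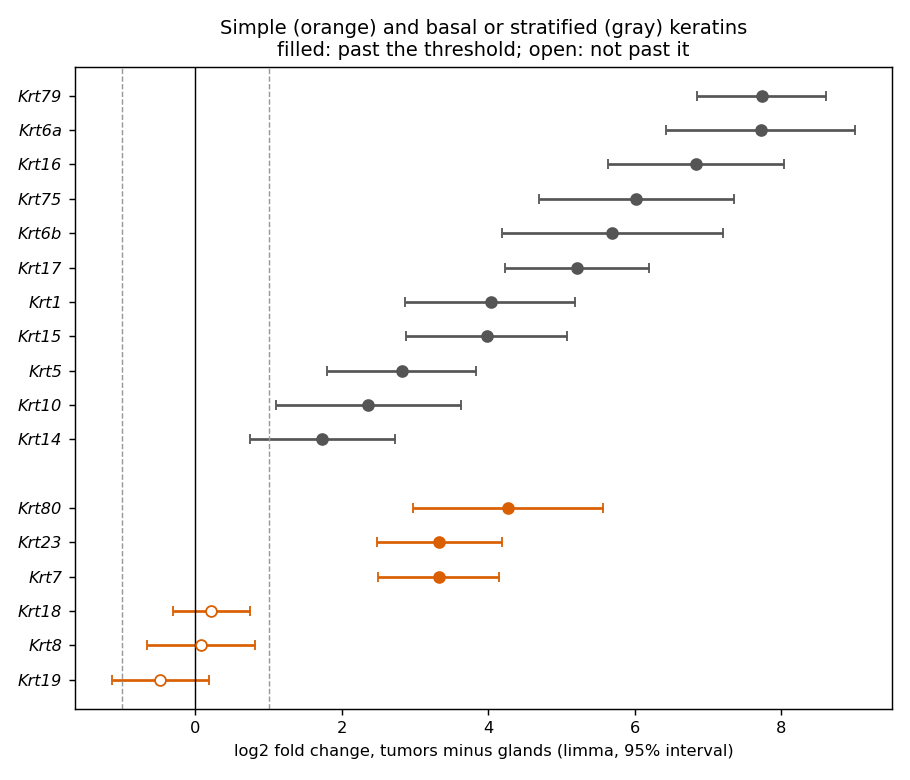
Log2 fold change of tumors minus glands with its 95% interval (x axis, limma) for the 6 simple keratins in orange and the 11 tested basal and stratified keratins in gray. Filled points passed the threshold. Krt8, Krt18 and Krt19 are the open points around 0, and dashed lines mark 2-fold.

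Along chromosome 15, the keratin genes next to Krt8 and Krt18 did rise. Krt79 lies 56.4 kb from Krt8 and was 7.73 higher on the log2 scale, and Krt78, which lies between them, was 2.61 higher (adjusted p = 0.000825, limma without the filter). At the other end of the cluster, Krt80 and Krt7 both rose. On chromosome 11, Krt19 lies beside Krt15 and Krt14, which were 3.98 and 1.73 higher. Krt7, Krt8 and Krt80 overlap annotated noncoding genes on the opposite strand, and no source used here says whether strand was used in counting, so that such reads cannot be told apart from theirs. Krt8 also has a processed pseudogene, Krt8-ps, that may share reads with it.

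**Figure D5:**
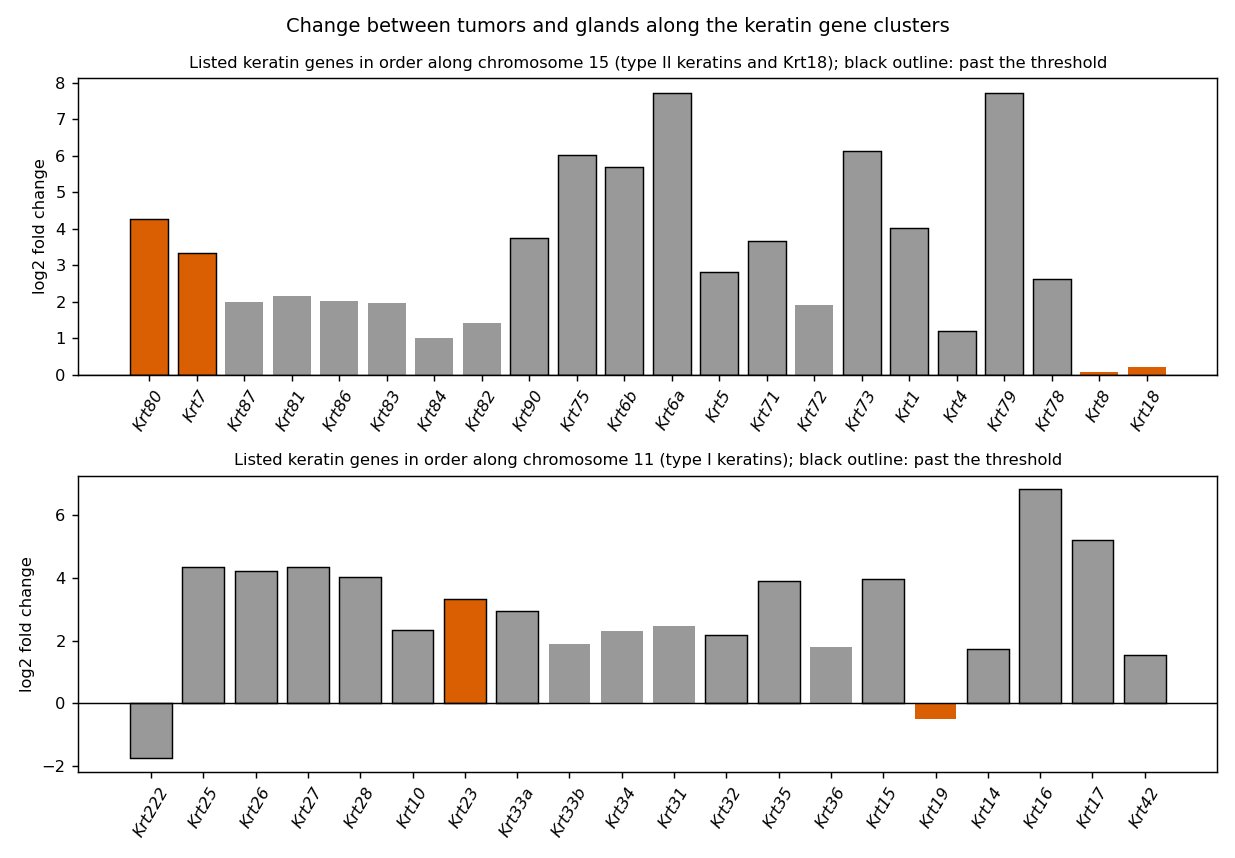
Log2 fold change of tumors minus glands (y axis, limma) for the listed keratin genes in their order along chromosome 15 and chromosome 11 (x axis, by rank, not to scale). Simple keratins are orange, and a black outline marks genes past the threshold, taken without the filter where the filter left a gene out. Krt8 and Krt18 stand at the end of the chromosome 15 cluster next to Krt79 and Krt78, which rose.

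Of 14 genes for proteins that link or bind keratin filaments, 6 were significantly higher, none lower and 8 not called (median log2 fold change 0.89). The 6 include Eppk1, which was at 4.39 normalized cpm or less in every gland and passed the filter through the tumors alone. Dsp, the desmoplakin that anchors keratin to desmosomes, was 4.40 higher on the log2 scale (adjusted p = 9.75e-06), Pkp1, a plakophilin of stratified epithelium, 4.16 (adjusted p = 4.94e-06), and Sfn, a 14-3-3 protein that binds keratins, 4.04 (adjusted p = 2.55e-05, limma). Of the 5 other intermediate filament genes tested, Nes, which encodes nestin, was the only member called (1.32 higher, adjusted p = 0.0423, limma). That call was lost in 13 of 24 settings, and without gland 3 its log2 fold change was 0.59. Synm, which encodes the intermediate filament protein synemin, was left out by the filter because it was low in the tumors. It was at 6.92 ± 7.34 normalized cpm (SD, n = 10) in tumors and 46.4 ± 17.5 (SD, n = 3) in glands, and was lower without the filter (log2 fold change -2.80, adjusted p = 0.000414, limma).

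Among the 16 epithelial genes other than keratins, 2 were higher and 14 not called, with a median log2 fold change of 0.20. The tight junction claudin Cldn4 was among those that rose (1.59, adjusted p = 0.000301, limma). Of the 7 hormone-sensing luminal genes tested, Wnt4, a target of the progesterone receptor, was lower (-1.49, adjusted p = 0.0183, limma) and the other 6 were not called. The count of genes called lower was between 0 and 2 over the settings tried. Tnfsf11, which encodes the RANK ligand, fell below the filter in the tumors, at 0.566 to 6.6 normalized cpm against 13.8, 25.6 and 24.6 in glands 1 to 3, and was lower without the filter (log2 fold change -3.05, adjusted p = 4.06e-05, limma). Wnt4 was not past the threshold without gland 1 (-1.41) or gland 2 (-1.15), nor with a mean per mouse (-1.36, adjusted p = 0.0647) or when the 3 tumors that share a mouse were left out (-1.30, adjusted p = 0.0684, limma). Esr1, the estrogen receptor gene, was at a log2 fold change of -0.22 (adjusted p = 0.572) and Gata3, a luminal transcription factor, at -0.57 (adjusted p = 0.118, limma).

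The luminal progenitor and alveolar genes were split. Of the 9, the retinaldehyde dehydrogenase Aldh1a3 (2.12), the cytokine Lif (2.04) and lactoferrin Ltf (1.79) had the largest rises among 4 that were higher. The milk fat globule gene Mfge8 (-2.09), Elf5 (-1.68), the regulator of alveolar fate, and Stat5a (-1.03), the effector of prolactin, were the 3 that were lower, and 1 was lower without gland 1 or without gland 2. Elf5 was not past the threshold without gland 1 or gland 2 (-1.67 and -1.45), and Stat5a, close to 2-fold, was not in most settings (-0.82 without gland 2). All 8 milk protein genes and all 5 myoepithelial contractile markers tested were lower, with medians of -4.23 and -4.32. The myoepithelial sum ran from 90.6 to 267 normalized cpm in tumors against 1125 to 2399 in glands. The part of these cell types in the keratin values was not tested.

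Of 14 epithelial transcription factors tested, 9 were higher, 1 lower and 4 not called (median log2 fold change 1.12). With epithelial rescaling, 5 were higher and 2 lower, and without gland 3, 4 were higher and 2 lower. The AP-1 subunit Fos (3.06, adjusted p = 2.19e-06), the basal factor Trp63 (2.68, adjusted p = 1.82e-06) and Klf4 (2.48, adjusted p = 0.000175, limma), a factor of squamous differentiation, rose most. Ets1, which is also high in lymphocytes and endothelium, was lower (-1.79, adjusted p = 0.00147, limma). Of the endothelial markers, 6 of 7 were lower, with a sum of 54.2 to 126 normalized cpm in tumors against 226 to 596 in glands, and the lymphocyte sum was 529, 25.7 and 542 normalized cpm in glands 1 to 3 and between 12.2 and 138 in the tumors. The skeletal muscle sum was 1900 in tumor 4 and 323 in tumor 10, and at most 20.6 in every other library.

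Over the 10 tumors, the luminal keratins varied together. The Pearson r of log2 levels was 0.67 for Krt8 with Krt18 (Spearman rho 0.83), 0.86 for Krt8 with Krt19 (rho 0.66) and 0.67 for Krt18 with Krt19 (rho 0.76). Krt80 varied with Krt6a (r 0.96, rho 0.76, and r 0.77 without tumors 3 and 7), while Krt7 had an r of 0.04 with Krt8. Without the 2 tumors farthest in its level, the r of Krt8 was 0.60 with Krt18 and 0.63 with Krt19. Krt23 ran against Krt18 (r -0.75, rho -0.71), and Krt8 against Epcam (r -0.90, rho -0.79). These are descriptions, since both genes of a pair share a library and its scaling, and the tumors come from 6 mice. Over the 6 means per mouse, none of the 45 pairs examined passed an exact permutation test after Benjamini-Hochberg adjustment. The lowest adjusted p was 0.188 for Pearson's r, shared by Krt80 with Krt6a (r 0.98), Krt14 (r 0.92) and Krt17 (r 0.90). Over the single tumors, leaving out tumors 3 and 7 took the r of Krt80 with Krt14 from 0.75 to -0.12 and with Krt17 from 0.77 to 0.03, so that both rested on these 2 tumors. For Krt8, the mouse means gave r 0.90 with Krt19 and -0.86 with Epcam (exact permutation, adjusted p = 0.312 for each).

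Of all genes tested, the 3 with the most similar pattern to Krt8 over the 10 tumors, by Pearson r of log2 levels, were Zbed3 (0.985), Acaa1b (0.983) and Smarcd2 (0.983). For Krt18 they were Lbp (0.974), Cracr2b (0.962) and Kcnk1 (0.959), and for Krt19 they were Npdc1 (0.975), Arhgap28 (0.969) and Tbc1d22b (0.969). Krt7 was most alike to Osbpl3 (0.954), Mapk1ip1l (0.951) and E2f2 (0.947). No keratin was among these nearest genes, and with 10 tumors and 11795 genes such values are a description of these libraries.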

How the data were processed

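Total RNA of whole mammary tumors and glands was sequenced with paired-end reads. The authors used Rsubread for mapping to mm10, featureCounts for counting per gene and edgeR for normalization. The signal values deposited by the authors are reads divided by an effective library size (normalized cpm), and 100% of the values were whole multiples of 1 read (within 0.1 reads), so that read counts were recovered. Both UNMC and Novogene are named for sequencing, so no batch could be assigned. No pair of libraries agreed within counting noise (smallest chi-square per gene 20.4). Genes at 5 or less in most libraries were left out (3418 of 15213). Log2(value + 1) was tested with limma 3.58.1 with a variance trend (R 4.3.3), after a check on simulated data. Recovered reads were tested with edgeR 4.0.16 and DESeq2 1.42.0 as alternatives. Intervals of limma rest on the spread between libraries, which treats tumors of the same mouse as separate. Depth was lowest in the tumors, and Krt80 rests on 2 to 13 reads in the glands.

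The 6 genes, the gene lists and the tests were chosen with earlier results of these data known. Besides these 6, the genes named were the largest rises and falls among those called in each list (at most 3 of each), reference markers, and the 3 genes most correlated with each of 4 keratins. Krt78, Krt15, Krt222, Synm, Tnfsf11 and Eppk1 were named for their position, their direction or their passing of the filter, after their values were seen. Correlations by mouse and the motif search were likewise added after seeing the data. Lists with no named gene were reported by sums. Positions are those of RefSeq GRCm38.p6, matched by Entrez ID for 15106 genes, and promoters are RefSeq sequences, with the first listed start of each gene. In the lists with named genes, 1 of the genes that this naming rule picks is not reported by name here. Called genes that the rule does not pick were in general not named.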

Additional observations from a re-analysis of the deposited data

Results flagged for a closer look

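Over the 10 tumors, Krt7 of tumor 3 (576 normalized cpm) and Krt8 of tumor 6 (446 normalized cpm) stood apart from the rest, with gaps to the nearest tumor of 0.627 and 0.491 of the whole range, past the 95% limit of Dixon's test for 10 samples. For 10 independent and normally distributed values, chance gives such a gap in about 1 in 20 groups. These tumors came from 6 mice, and the gaps were taken on the linear scale, not on the log2 levels used elsewhere. On the log2 scale the gaps were not tested. The difference of Krt7 did not rest on tumor 3, since every other tumor was at 104 or more and the highest gland at 23.1.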

How the results depend on the processing

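Krt7, Krt23 and Krt80 kept their direction and call in every alternative, and the count of simple keratins called was 3 higher and 0 lower throughout. Krt8 was at -0.27 and Krt18 at -0.13 with epithelial rescaling, and Krt8 was at -0.04 with edgeR and -0.03 with DESeq2. With each library left out, log2 fold changes were between -0.42 and 0.48 for Krt8, where the sign turned without gland 3 (-0.42) or tumor 6 (-0.01), between -0.08 and 0.58 for Krt18 and between -0.86 and -0.20 for Krt19. The ratio differences were then between -0.34 and 0.02 for Krt8/Krt18, between -0.78 and -0.54 for Krt19/Krt18, between -1.69 and -1.28 for Krt18/Krt14 and between -1.40 and -0.94 for Krt19/Epcam. Genes called over the whole table were 798 higher and 1596 lower after epithelial rescaling, and 1603 higher and 1538 lower without the filter. That last setting tests more genes, among them those high only in the glands, which the filter left out. A scaling on reads outside milk genes and Rn45s shifted the median of all genes by 0.13.

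With the replicate number as a block, 362 genes were higher and 182 lower, and the 3 simple keratins stayed called (adjusted p = 0.0274 at most). The numbers do not pair the samples: tumors and glands of the same number are different mice, and their deviations correlated at -0.58, 0.04 and -0.66. Depth limits Krt80 in the glands.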
